A study of Macaca mulatta with 252 samples.

Results

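The genes described here are the transporters that load neurotransmitters into vesicles, clear them from the extracellular space, or exchange sodium, potassium, calcium, protons, chloride and bicarbonate across neuronal and glial membranes. They were chosen by symbol: a gene was taken when its symbol in the probe-to-gene annotation began with SLC1A, SLC4A, SLC6A, SLC8A, SLC9A, SLC12A, SLC17A, SLC18A, SLC24A or SLC32A. A probe set had to carry a single symbol, the probe set with the highest mean stood for its gene, and 1 gene of the SLC12A family was outside the rule. This gave 55 of the 14133 genes on the array: 15 of SLC6A, 9 of SLC4A, 6 of SLC1A, 6 of SLC17A, 5 of SLC9A, 5 of SLC12A, 4 of SLC24A, 3 of SLC18A, 2 of SLC8A and none of SLC32A. Symbols were matched without using measured differences between regions, but the members were chosen with earlier results of these data known.

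The RNA came from brain regions of adult rhesus macaques and was measured on single-colour GeneChip Rhesus Macaque Genome arrays. The experimental arrays numbered 197 from neocortex, 16 from hippocampus and 12 from the thalamic relay of vision, the lateral geniculate nucleus (LGN). They formed 57 region groups: 50 layers of 10 neocortical areas, 4 fields of the hippocampus and 3 divisions of the LGN. Each group held 4 arrays except layer 4 and layer 5 of A1 and layer 2 of M1, with 3 each. The frontal areas were ACG (anterior cingulate gyrus), OFC (orbitofrontal cortex) and DLPFC (dorsolateral prefrontal cortex), the primary areas were M1 (motor), S1 (somatosensory), A1 (auditory) and V1 (visual), and the other areas were V2 (secondary visual cortex), MT (middle temporal) and TE (temporal). Layers 2, 3, 5 and 6 were taken in every area, layer 4 also in DLPFC, S1, A1, V2, MT and TE, and layer 4 of V1 was divided into 4a, 4b, 4ca and 4cb. The dentate gyrus (DG), CA1, CA2 and CA3 made up the hippocampal fields, and the LGN divisions were koniocellular, magnocellular and parvocellular. No treatment or genetic change is named in the labels. The animals are called male A, male B, male C, female D, female E and female F here: male A gave 46 arrays, male C 53, female D 52 and female E 56, while male B gave 13 arrays from ACG, OFC and DLPFC alone and female F gave 5 arrays from MT alone. The study's design text names laser capture for its hippocampal control RNA and 3 amplification batches, and does not say which array was in which batch.

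Glutamate, the main excitatory transmitter of the cortex, is packed into synaptic vesicles by the SLC17A vesicular glutamate transporters and is taken up after release by SLC1A carriers, which sit mostly on astrocytes. SLC18A transporters fill vesicles with monoamines or acetylcholine, and SLC6A carriers use the sodium gradient to recover GABA, glycine, monoamines and amino acids. SLC12A cotransporters set the chloride gradient that decides how GABA acts, SLC4A and SLC9A proteins regulate pH, and SLC8A and SLC24A exchangers expel calcium in return for sodium, the latter with potassium moving as well.

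Array medians lay between 4.72 and 5.00 log2 intensity, and arrays correlated with the mean of their group's other arrays at r = 0.941 or more (median r 0.983). Over 300 genes that separated the parts of each area, 13 experimental arrays matched another part of their area better than their own, and 1 of these by more than 1 layer: the array labelled A1 layer 3 of male A correlated best with layer 5. The arrays labelled layers 3 to 6 of S1 of female D, 4 in number, each matched the layer above. The labels were kept. Without the array of male A, or without the S1 arrays of female D, the counts of called members given below were unchanged in the comparisons these arrays enter, except among layers. The remaining mismatched arrays were not left out singly. Among them, layers 4 and 5 of DLPFC of female D each matched the other layer. Layer 3 of M1 of male C correlated at r = -0.02 with its own layer and 0.60 with layer 2. Of the 3 measured thalamic markers, the transcription factor TCF7L2 averaged 12.70 log2 intensity in the LGN, 10.13 in neocortex and 8.64 in hippocampus, while LHX9 (4.10, 3.96 and 4.07) and PRKCD (6.60, 6.94 and 6.99) did not mark the LGN. The 5 measured cortical excitatory markers averaged 8.19 in neocortex, 8.36 in hippocampus and 6.46 in the LGN. NEUROD6 (7.39, 8.74 and 3.94) and NRGN (10.33, 9.81 and 6.29) fell most in the LGN. EMX1 (7.80, 7.44 and 6.96), TBR1 (10.89, 11.23 and 10.68) and CAMK2A (4.53, 4.57 and 4.40) differed less. In such bulk tissue, fewer cells of a type and less RNA per cell cannot be told apart.

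Across the 57 groups, the widest differences among members above the filter on low values belonged to the vesicular glutamate transporter SLC17A7 and to the calcium exchangers SLC24A3, SLC24A4 and SLC8A1. A gene was tested when its mean exceeded the median of all probe sets (4.76 log2 intensity), which held for 36 of the 55 members (65.5%, against 72.9% of all genes). A gene is called below where the Benjamini-Hochberg adjusted p of limma's moderated test was under 0.05 and the log2 change, or for an F test the range of the fitted means, was at least 1. Called in this sense were 20 of 36 members (55.6%), against 68.2% of the 10300 genes tested, so a smaller share of members than of all genes was called. A further 8 passed the adjusted p with a range under 1, which makes 77.8% at adjusted p alone (against 92.6% of all genes), and 8 passed neither. The regions accounted for a median of 54.5% of the variation of the 36 members and 52.6% of that of all genes above the filter. By family, all 3 tested SLC24A members, both SLC8A and both tested SLC17A members were called, with 4 of 6 SLC4A, 4 of 10 SLC6A, 3 of 6 SLC1A, 1 of 3 SLC12A, 1 of 2 SLC9A and 0 of 2 SLC18A members.

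Levels are log2 intensities and are compared between regions within a gene, never between genes. Among the vesicular transporters, the group means of SLC17A7 (Entrez gene 574349), the vesicular glutamate transporter VGLUT1, ran from 4.73 in the parvocellular LGN to 9.55 in CA3, a fitted range of 4.82. SLC17A9, a vesicular nucleotide transporter, had a range of 1.46, from layer 6 of V1 to layer 2 of OFC. Its 4 OFC layer 2 arrays read 4.96, 6.42, 6.96 and 6.95 in male B, male C, female D and female E, and the male B array lay within the V1 layer 6 values of 4.31 to 5.47. Its call was lost without male A, male C or female E. With the median of each gene's probe sets, SLC17A9, SLC4A2, SLC4A8, SLC6A7 and SLC6A17 were not called among the 57 groups.

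Of the uptake carriers, SLC1A3 (GLAST, an astrocyte glutamate transporter) ranged over 1.73 and was lowest in DG, SLC1A2 (GLT-1, the main astrocyte glutamate transporter) ranged over 1.69 and was lowest in the parvocellular LGN, and SLC1A6 (EAAT4) ranged over 1.49 and was highest in CA3. SLC6A12 (Entrez gene 705780), a betaine and GABA transporter, had a range of 2.03 between DG and the koniocellular LGN. The proline transporter SLC6A7 ranged over 1.72, from layer 6 of V1 to layer 5 of ACG. The neutral amino acid transporters SLC6A15 and SLC6A17 ranged over 1.56 and 1.42. SLC6A17, found on synaptic vesicles, read 10.20, 10.04, 10.11 and 10.41 in layer 4cb of V1 in males A and C and females D and E, and 8.70, 8.69, 8.85 and 8.87 in CA1, without overlap. The other 2 probe sets of SLC6A17 followed its main one with r = -0.08 and -0.05 over the 57 group means, so its pattern rests on 1 probe set.

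Among the chloride and pH regulators, SLC12A5 (KCC2, the neuronal chloride extruder) ranged over 1.32. Its arrays read 12.09, 12.07, 11.92 and 11.90 in layer 2 of TE and 10.92, 10.63, 10.67 and 10.47 in the parvocellular LGN, in males A and C and females D and E. The bicarbonate carriers SLC4A8, SLC4A10, SLC4A3 and SLC4A2 had ranges of 1.81, 1.71, 1.62 and 1.1, with the highest means in CA2, layer 2 of S1, CA1 and the magnocellular LGN in that order. Another probe set of SLC4A8 ran against the main one (r = -0.45) and another of SLC4A2 was unrelated to it (r = -0.04). SLC9A5, a sodium-proton exchanger of neurons, had a range of 1.84. It read 11.88, 11.84, 11.72 and 11.88 in CA3 and 9.84, 10.05, 9.98 and 10.11 in layer 4 of V2, so CA3 stood far above V2 layer 4 in every animal.

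Above the filter, the calcium exchangers held 5 of the 7 members with a range of at least 2: SLC24A3 (Entrez gene 702212) at 4.63, SLC24A4 (697997) at 3.77, SLC8A1 (574193) at 3.70, SLC8A3 (713061) at 2.55 and SLC24A2 (711896) at 2.01, beside SLC17A7 and SLC6A12. The share of all genes with such a range is not given here, so whether 7 is many or few cannot be said. SLC24A3, the exchanger NCKX3, was lowest in layer 6 of V2 (7.55, 8.49, 7.33 and 7.99 in males A and C and females D and E) and highest in CA2 (12.16, 12.55, 12.59 and 12.59). SLC24A4, NCKX4, was lowest in CA2 and highest in layer 2 of V1. The regions took up 94.9% of the variation of SLC24A3, 89.4% of that of SLC17A7 and 88.1% of that of SLC24A4.

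**Figure D1:**
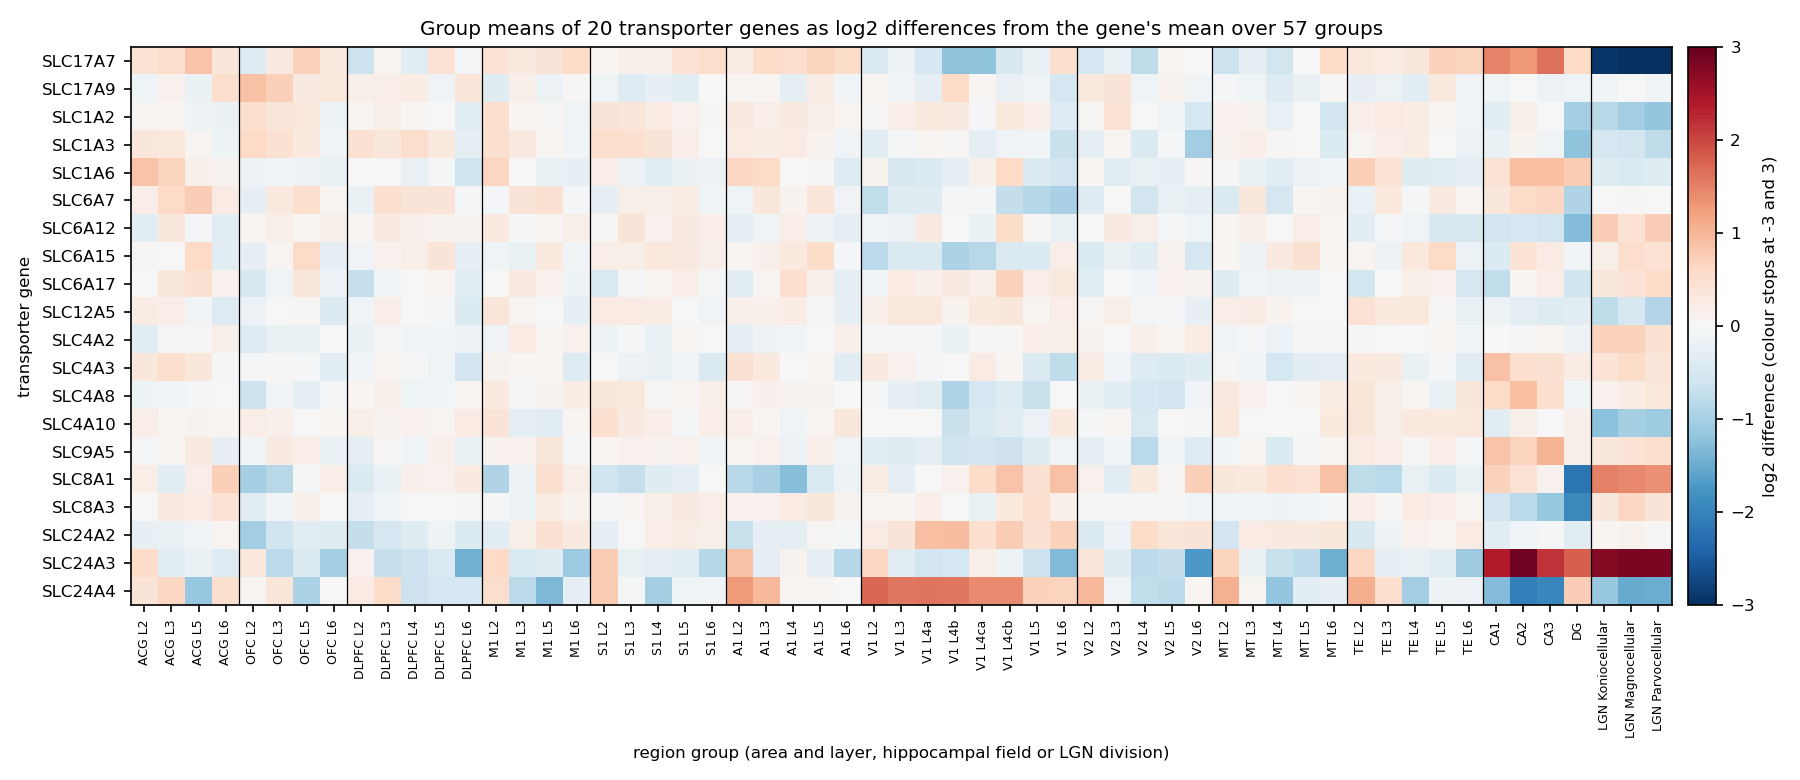
Heatmap of the 20 called members (rows) over the 57 region groups (columns); colour is the group mean as a log2 difference from the gene's mean over all groups, red higher and blue lower. SLC17A7 is darkest blue in the 3 LGN divisions, SLC24A3 is red in all hippocampal and LGN groups, and SLC24A4 is red across the layers of V1.

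Between the 3 structures, the vesicular glutamate transporter SLC17A7 was lowest in the LGN and highest in hippocampus, and the calcium exchanger SLC24A3 was far higher in LGN and hippocampus than in neocortex. Each animal entered once per structure, with males A and C and females D and E. Of 36 members, 9 were called among structures (25.0%, against 17.9% of all genes), and the count was 9 with any of the 4 animals left out. LGN against neocortex called 6 of 36 (10.4% of all genes), hippocampus against neocortex 4 (6.06% of all genes) and LGN against hippocampus 6 (14.1% of all genes). These 3 contrasts share their samples and are not independent. The members' median log2 difference was 0.03 for LGN against neocortex and -0.06 for hippocampus against neocortex, beside 0.00 and 0.01 for all genes.

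SLC17A7 averaged 4.75, 4.94, 4.79 and 4.91 in the LGN of male A, male C, female D and female E, 8.01, 7.96, 7.89 and 8.19 in neocortex, and 8.97, 9.04, 9.05 and 9.57 in hippocampus. These animal averages did not overlap between the 3 structures, and those of the LGN lay close to the median of all probe sets. By group SLC17A7 overlapped between hippocampus and neocortex, with 8.49 in DG and 8.75 in layer 5 of ACG. It was lower in LGN than in neocortex (log2 change -3.16 ± 0.09, SE of the fit, adjusted p = 4.63e-11) and 2.21-fold higher in hippocampus than in neocortex (1.14 ± 0.09, adjusted p = 6.43e-07). Against hippocampus the LGN had a log2 change of -4.31 ± 0.09. With no detection calls the LGN level cannot be told from background, so both differences from the LGN may be understated. Over the 57 group means SLC17A7 followed the mean of the 5 cortical excitatory markers with r = 0.83, and over the 50 neocortical groups with r = 0.54. These points share arrays and animals, and the part of the marker difference in the result was not tested. SLC17A6, the vesicular glutamate transporter known from thalamic relay neurons, was not analysed here.

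Among the uptake carriers, SLC1A2 averaged 11.28, 11.29, 11.41 and 11.51 in the LGN of males A and C and females D and E and 12.32, 12.42, 12.57 and 12.51 in neocortex, with hippocampal values between them. The LGN was lower, with a log2 change of -1.081 ± 0.07 (adjusted p = 1.11e-07), and of -0.98 against the neocortical areas of the wide control set defined below. The 5 measured astrocyte markers averaged 8.21 in LGN and 7.92 in neocortex, but they were split. GFAP (11.11 in LGN and 9.91 in neocortex), GJB6 (9.46 and 9.03) and FGFR3 (10.26 and 10.10) were higher in LGN. ALDH1L1 (5.73 and 5.97) and SOX9 (4.50 and 4.60) were lower there. The part of astrocytes in the SLC1A2 difference was not tested. SLC1A6 averaged 7.34, 7.25, 7.03 and 6.96 in hippocampus and 6.21, 6.12, 5.78 and 5.93 in the LGN (-1.14 ± 0.06 for LGN against hippocampus). Layer 2 of ACG, at 7.24, lay within these hippocampal averages. Neocortex and LGN overlapped for this gene. The animal averages of SLC6A12 did not overlap between structures. They were 5.19, 5.05, 5.32 and 5.21 in hippocampus, 6.01, 5.91, 6.00 and 5.87 in neocortex and 6.91, 6.27, 6.55 and 6.55 in the LGN (1.38 ± 0.09 for LGN against hippocampus). Its single neocortical arrays ran from 3.65 to 7.24 and so covered those of hippocampus (4.30 to 5.89) and LGN (5.91 to 7.23). Markers of 3 other cell types had means in the same order of hippocampus, neocortex and LGN: the 4 measured endothelial markers at 5.47, 5.93 and 6.20, the 3 mural and meningeal ones at 4.60, 5.32 and 5.94, and the 3 oligodendrocyte ones at 9.96, 10.75 and 11.66. Single markers that did not keep this order were FLT1 (3.65, 3.57 and 3.74), COL1A2 (3.94, 3.80 and 4.01) and CNP (12.22, 12.31 and 12.13). Over the 57 group means SLC6A12 followed these lists with r = 0.67, 0.54 and 0.38, over groups that share arrays and animals. Their part in the SLC6A12 difference was not tested.

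Of the bicarbonate carriers, SLC4A10, a sodium-driven chloride-bicarbonate exchanger of neurons, was called. It averaged 10.22, 9.96, 10.04 and 10.27 in the LGN, 11.37, 11.28, 11.31 and 11.19 in neocortex and 11.26, 11.30, 11.19 and 11.12 in hippocampus. The LGN lay below both other structures in every animal, with log2 changes of -1.17 ± 0.08 against neocortex and -1.10 ± 0.08 against hippocampus, the latter -0.92 after quantile normalization. The chloride extruder SLC12A5 was not called here, with group means of 10.67 to 11.08 in LGN, 11.19 to 11.40 in hippocampus and 11.13 to 11.99 in neocortex.

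The calcium exchangers divided the structures in different ways. SLC24A3 averaged 12.51, 12.32, 12.20 and 12.43 in the LGN of males A and C and females D and E, 11.74, 12.07, 11.79 and 11.88 in hippocampus and 9.15, 9.14, 9.16 and 9.34 in neocortex. The LGN and hippocampal values lay far above every neocortical one, by 8.99-fold (3.17 ± 0.08, adjusted p = 4.40e-11) and 6.38-fold (2.67 ± 0.08, adjusted p = 8.15e-10). SLC24A4 went the other way, with 7.04, 6.99, 7.01 and 7.14 in neocortex, 5.59, 5.89, 5.89 and 5.87 in hippocampus and 5.27, 5.72, 6.01 and 5.27 in LGN. Its LGN and hippocampal averages overlapped, and both lay below neocortex (-1.48 ± 0.12 and -1.24 ± 0.12, the latter -0.98 against the wide control set alone). The hippocampal average joined unlike fields: DG, at 7.68, lay above these neocortical averages, and CA2 was lowest at 4.91. SLC8A1, the exchanger NCX1, averaged 10.87, 10.52, 10.93 and 10.59 in LGN, above 9.27, 9.17, 9.08 and 9.17 in neocortex and 9.08, 9.12, 9.27 and 8.75 in hippocampus (1.55 ± 0.10 and 1.67 ± 0.10). SLC8A3, NCX3, was lowest in hippocampus at 6.17, 6.14, 6.30 and 6.03, against 7.44, 7.28, 7.29 and 7.32 in neocortex and 7.69, 7.72, 7.73 and 7.73 in LGN. Its contrasts of -1.17 ± 0.07 (hippocampus against neocortex) and 1.56 ± 0.07 (LGN against hippocampus) fell to -0.64 and 0.97 with the median of its probe sets.

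SLC12A8, a little studied member of the cation-chloride cotransporter family, was under the filter and so not tested with the others. Its values were 6.25, 6.91, 6.22 and 6.49 in the LGN, 4.02, 4.15, 4.03 and 4.05 in neocortex and 4.03, 4.18, 3.99 and 4.01 in hippocampus. Every LGN value stood above every other value, and in the fit of all genes without the filter LGN exceeded neocortex by 2.41 ± 0.09 (adjusted p = 3.31e-09). The neocortical and hippocampal levels cannot be told from background.

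**Figure D2:**
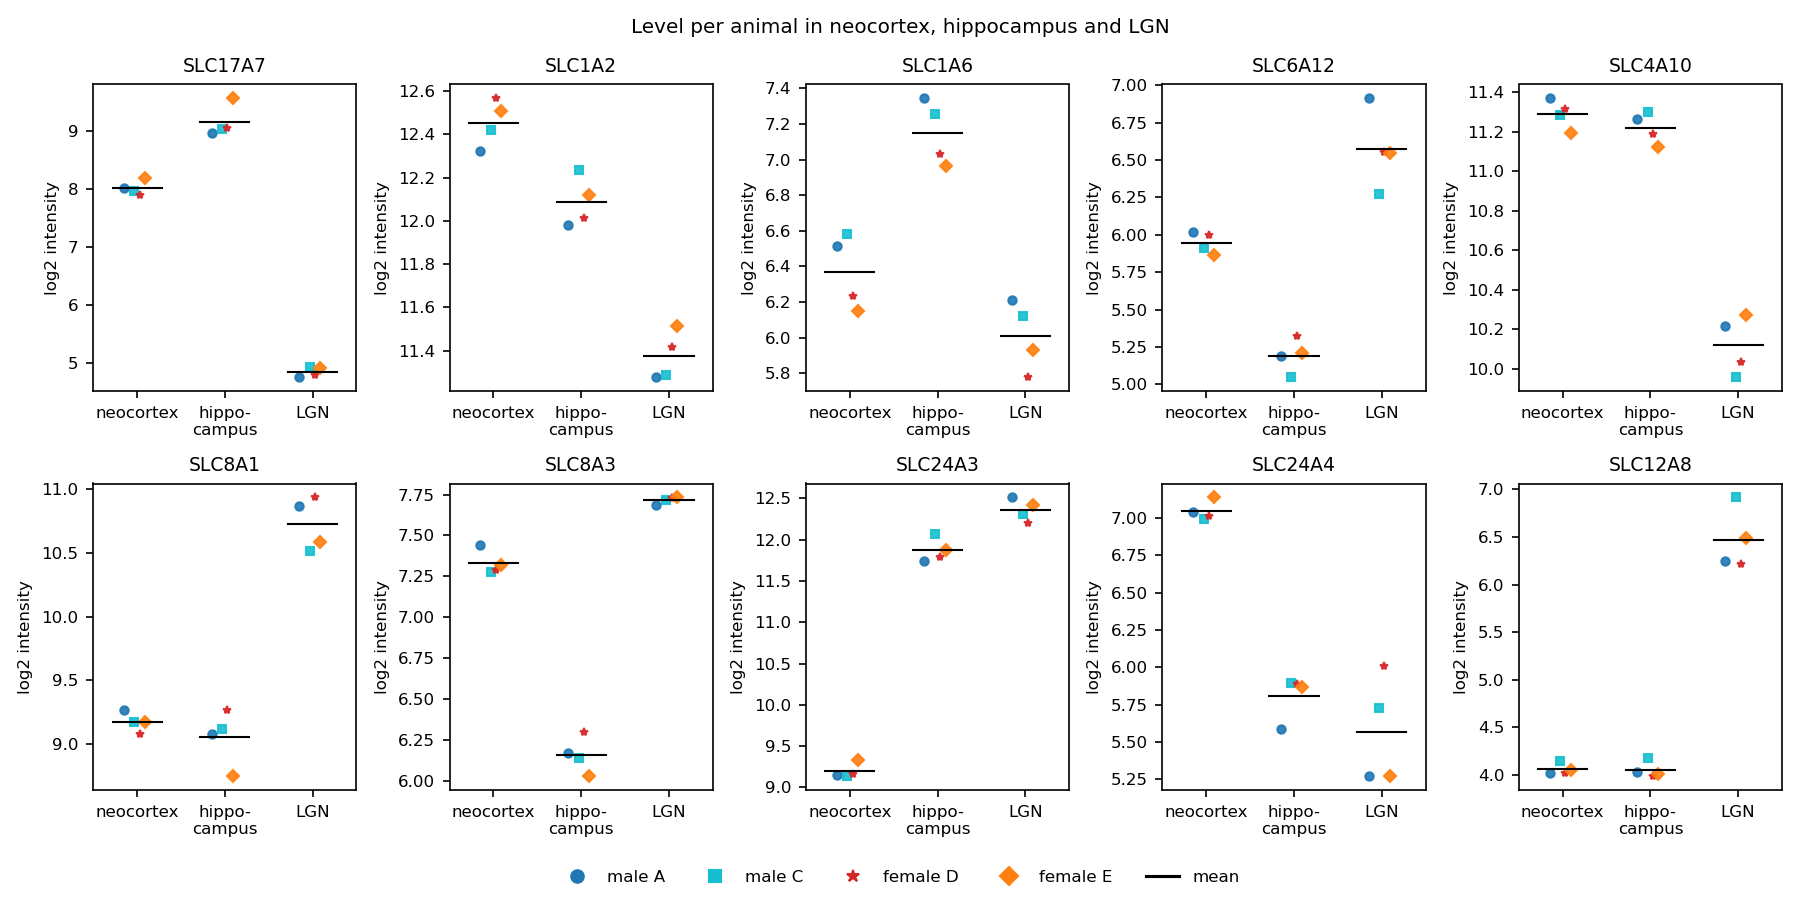
Log2 intensity per animal in neocortex, hippocampus and LGN for 10 members; points are the 4 animals that gave all 3 structures and bars their means. SLC17A7 and SLC4A10 are lowest in LGN, SLC24A3 is high in hippocampus and LGN, and SLC12A8 exceeds 6 in LGN alone.

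Among the hippocampal fields, the dentate gyrus stood apart: SLC24A4 and the sodium-proton exchanger SLC9A7 were higher there, and SLC8A1, SLC8A3, SLC6A7 and SLC1A3 were lower. The 4 fields differed for 9 of 36 members (25.0%, against 19.2% of all genes), in 4 animals. The calls of SLC17A7 without male C, of SLC24A3 without female D, and of SLC6A7 and SLC8A3 with the median of their probe sets were lost. DG against the other fields called 6 members (16.7%, against 10.3% of all genes), 2 higher and 4 lower. At adjusted p alone 3 members were higher (30.6% of all genes) and 16 lower (29.8% of all genes) in DG, 52.8% of the members against 60.4% of all genes. The members' median log2 difference was -0.20 beside -0.01 for all genes. The excitatory markers averaged 7.54 in DG and 8.55 to 8.72 in the CA fields, the oligodendrocyte markers 8.79 in DG and 9.43 to 10.95 in the CA fields, and the dentate granule cell markers PROX1, DSP and C1QL2 7.27 in DG and 5.70 to 6.10 in the CA fields. Their part in the lower members was not tested.

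SLC17A7 read 8.41, 8.27, 8.36 and 8.92 in DG of males A and C and females D and E, and 9.28, 9.29, 9.10 and 9.87 in CA1. Within each animal DG was the lowest of the 4 fields, while female E's DG value exceeded the CA2 value of male A (8.83). The range of the field means was 1.06. SLC18A2, the vesicular monoamine transporter VMAT2, was under the filter. It read 5.00, 5.81, 5.14 and 6.00 in CA2 and 4.19, 4.87, 5.14 and 5.44 in CA3, which overlapped, and 3.46 to 4.63 in CA1 and 4.00 to 4.38 in DG. Without the filter CA2 exceeded the other fields by 1.13 ± 0.23 (adjusted p = 0.00239).

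The astrocyte glutamate transporters were both lowest in DG. SLC1A3 read 10.37, 10.88, 10.49 and 10.43 there and from 11.39 to 12.16 in the CA fields, without overlap (-1.14 ± 0.11, adjusted p = 5.90e-07). SLC1A2 read 11.17, 11.53, 11.32 and 11.47 in DG and from 11.87 to 12.76 in the CA fields, with a range of field means of 1.18. The mean of the 5 astrocyte markers was 8.21 in DG and 7.54 to 7.80 in the CA fields. These markers were split between LGN and neocortex, and their single values by field are not given here. The part of astrocytes in the SLC1A3 and SLC1A2 differences was not tested. SLC6A7 read 6.27, 6.16, 6.69 and 6.39 in DG and 7.40 to 8.16 in the CA fields (-1.41 ± 0.09, adjusted p = 5.53e-09). This difference was -0.86 with the median of the 2 probe sets of SLC6A7.

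SLC9A7, a sodium-proton exchanger of the Golgi, read 6.20, 6.13, 5.73 and 6.60 in DG and 4.57 to 5.46 in the CA fields. Its DG difference of 1.04 ± 0.12 was 0.97 without female E, below the fold required.

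SLC24A4 gave the widest DG difference among members that were higher there. It read 7.35, 7.85, 7.81 and 7.71 in DG, 5.42, 5.73, 5.84 and 5.59 in CA1, 4.72, 5.08, 4.86 and 4.97 in CA2 and 4.84, 4.91, 5.03 and 5.21 in CA3. DG was 5.64-fold above the other fields (2.50 ± 0.08, adjusted p = 7.23e-12), with CA1 above every CA2 and CA3 array. CA2 and CA3 overlapped and were each lower than the mean of the other fields, by 2.30-fold and 2.11-fold (SE of the log2 changes 0.08). SLC8A1 was the reverse, with 7.26, 7.35, 7.41 and 6.36 in DG against 10.18, 9.97, 9.90 and 9.86 in CA1, 9.10, 9.64, 10.58 and 9.60 in CA2 and 9.79, 9.51, 9.19 and 9.17 in CA3. DG was 6.13-fold lower (-2.62 ± 0.20, adjusted p = 6.43e-08), and the CA fields overlapped. SLC8A3 read 5.42, 5.33, 5.30 and 5.32 in DG and 6.01 to 6.81 in the CA fields (-1.09 ± 0.08), a difference of -0.81 with the median of its probe sets. SLC24A3 had a range of 1.13, from 11.14, 11.75, 11.06 and 11.44 in DG to the CA2 values given above.

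**Figure D3:**
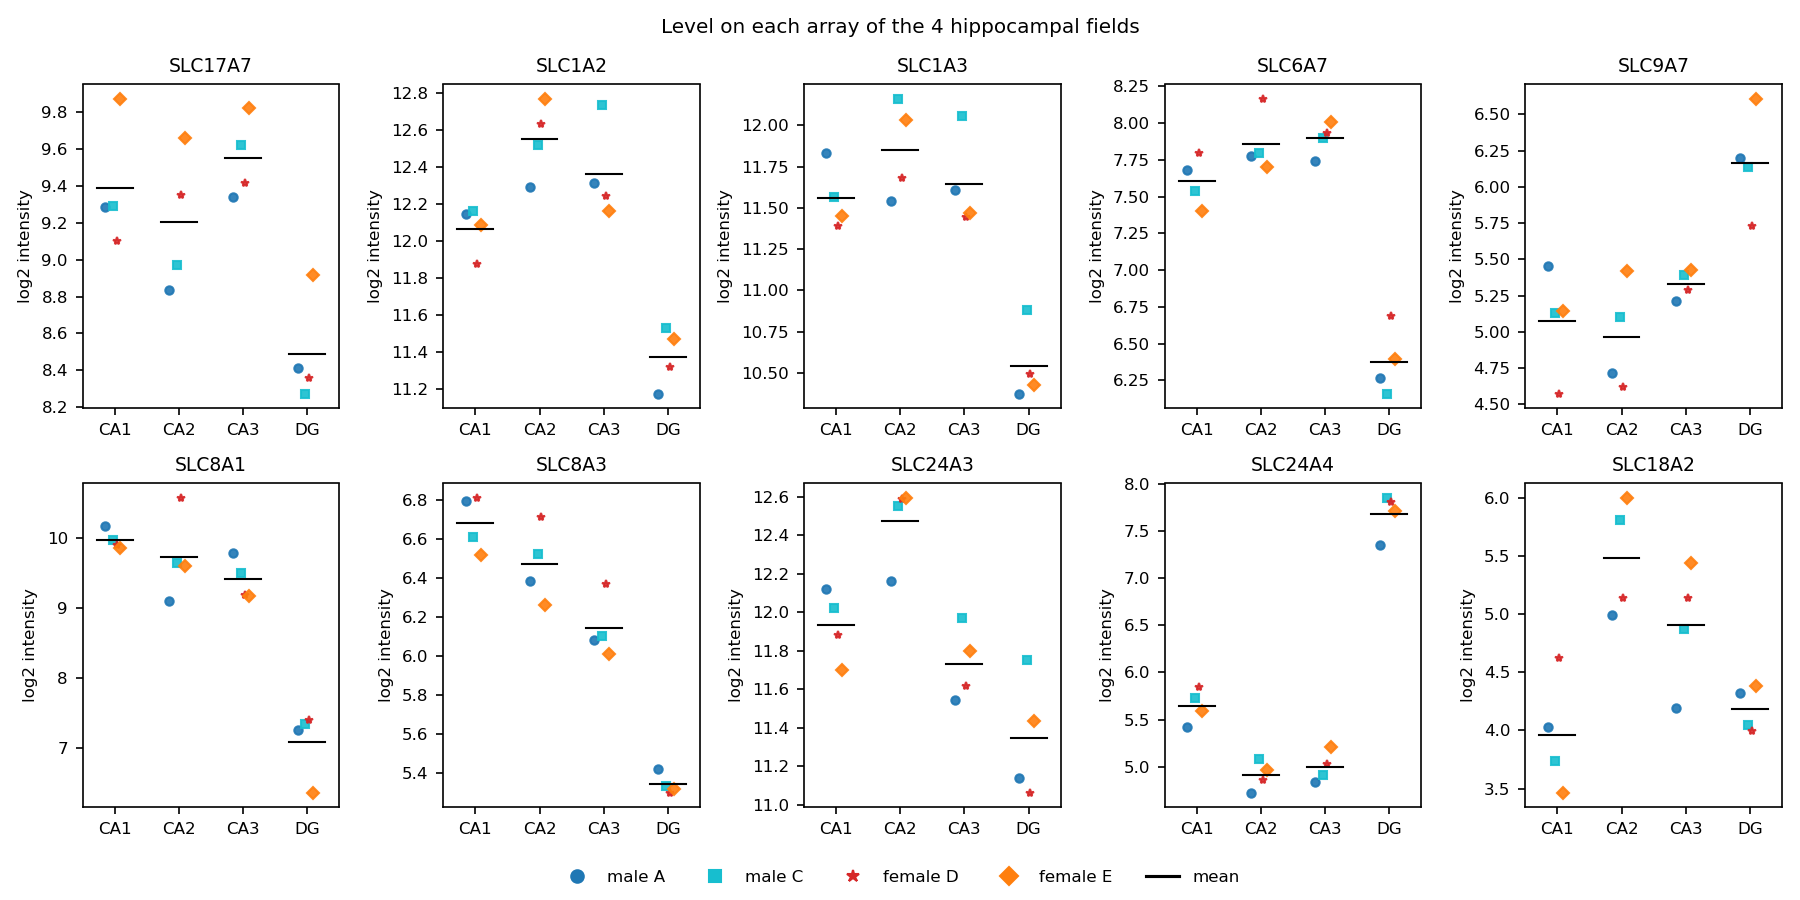
Log2 intensity on each array of CA1, CA2, CA3 and DG for 10 members, including SLC18A2, which was under the filter; points are animals and bars means. SLC24A4 and SLC9A7 are highest in DG, SLC1A3, SLC6A7, SLC8A1 and SLC8A3 are lowest there without overlap, and SLC18A2 is highest in CA2.

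Across cortical layers, 2 sodium-calcium-potassium exchangers, SLC24A3 and SLC24A4, were concentrated in layer 2, and SLC9A7, also high there, was the one other member called. Layer values were centred within animal and area and averaged per animal, in 4 animals. The average was over those of the 6 areas with layers 2 to 6 for which the animal gave all 5 layers, 105 arrays in all. Male A lacked DLPFC and layers 4 and 5 of A1, and female D lacked MT, so the areas averaged differed between animals. Layers differed for 3 of 36 members (8.33%, against 6.61% of all genes), and for 21 at adjusted p alone (58.3%, against 62.3% of all genes). The count was 2, SLC9A7 not being called, without male A, female D or female E, without the S1 arrays of female D alone, and after quantile normalization. The range of SLC9A7 was 1.00 with all arrays. Its mean over all experimental arrays (4.756) lay just under the filter, and it was tested here because it passed the filter within this comparison. In neocortex its group means ran from 3.81 in layer 4 of V2 to 6.10 in layer 2 of TE. The low end of SLC9A7 cannot be told from background, so the size of its layer difference is uncertain.

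SLC24A3 stood 0.969, 0.916, 1.085 and 1.077 log2 units above the mean of the layers in layer 2 of males A and C and females D and E, and at -0.97, -0.86, -0.92 and -0.84 in layer 6. Layers 3 to 5 lay between, at -0.26 to 0.24, so neither end overlapped them. Layer 2 exceeded the other layers by 1.26 ± 0.05 (adjusted p = 1.03e-12) and layer 6 was lower, with a log2 change of -1.12 ± 0.05 (adjusted p = 1.54e-11). SLC24A4 stood at 1.01, 1.01, 1.09 and 0.77 in layer 2 and at -1.10, -0.72, -0.69 and -0.67 in layer 4 (layer 2 against the others 1.21 ± 0.10, adjusted p = 6.51e-09). Its low point was thus layer 4, where SLC24A3 lay near its mean. SLC9A7 was also highest in layer 2, at 0.69, 0.64, 0.58 and 0.83. The oligodendrocyte markers rose from a mean of 9.61 in layer 2 to 11.45 in layer 6 and the excitatory markers were lowest in layer 2 (7.72, against 8.23 to 8.43 in the other layers). Over the 50 neocortical groups SLC24A3 ran opposite to the oligodendrocyte markers (r = -0.70) and SLC24A4 less so (r = -0.45). The points share arrays and animals, and the part of these markers in the layer differences was not tested.

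Deep layers (5 and 6) against upper layers (2 and 3) could be compared in all 10 areas, with 1 difference for each of 5 animals. No member reached the log2 change of 1 (0 of 37, against 2.12% of all genes). At adjusted p alone in limma, 9 members were higher in deep layers (16.8% of all genes) and 8 were lower (14.9% of all genes), 45.9% of the members in all against 31.7% of all genes.

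Among the transmitter carriers, SLC17A7 was higher in deep layers by 0.43 ± 0.08, and the astrocyte glutamate transporters SLC1A3 and SLC1A2 and the carrier SLC1A6 were lower, with log2 changes of -0.36 ± 0.04, -0.30 ± 0.05 and -0.36 ± 0.05. The amino acid carriers SLC6A17, SLC6A16 and SLC6A15 were higher by 0.24, 0.20 and 0.18. SLC6A16 went this way in 4 of 5 animals, and the other 16 members in 5 of 5. Of the chloride and pH regulators, SLC12A5, SLC4A3 and SLC9A7 were lower in deep layers (-0.26 ± 0.05, -0.37 ± 0.05 and -0.67 ± 0.08), while SLC4A2 and SLC12A9 were higher by 0.15 and 0.11. The calcium exchangers moved both ways: SLC24A3 and SLC24A4 were lower, with log2 changes of -0.81 ± 0.11 and -0.78 ± 0.08, and SLC8A1, SLC24A2 and SLC8A3 were higher by 0.61 ± 0.06, 0.39 ± 0.05 and 0.16 ± 0.05. For SLC8A1 the deep value stood 0.36, 0.36, 0.35, 0.16 and 0.31 above the animal's mean of deep and upper layers in male A, male B, male C, female D and female E. All 5 animals showed the deep excess, which was smallest in female D.

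**Figure D4:**
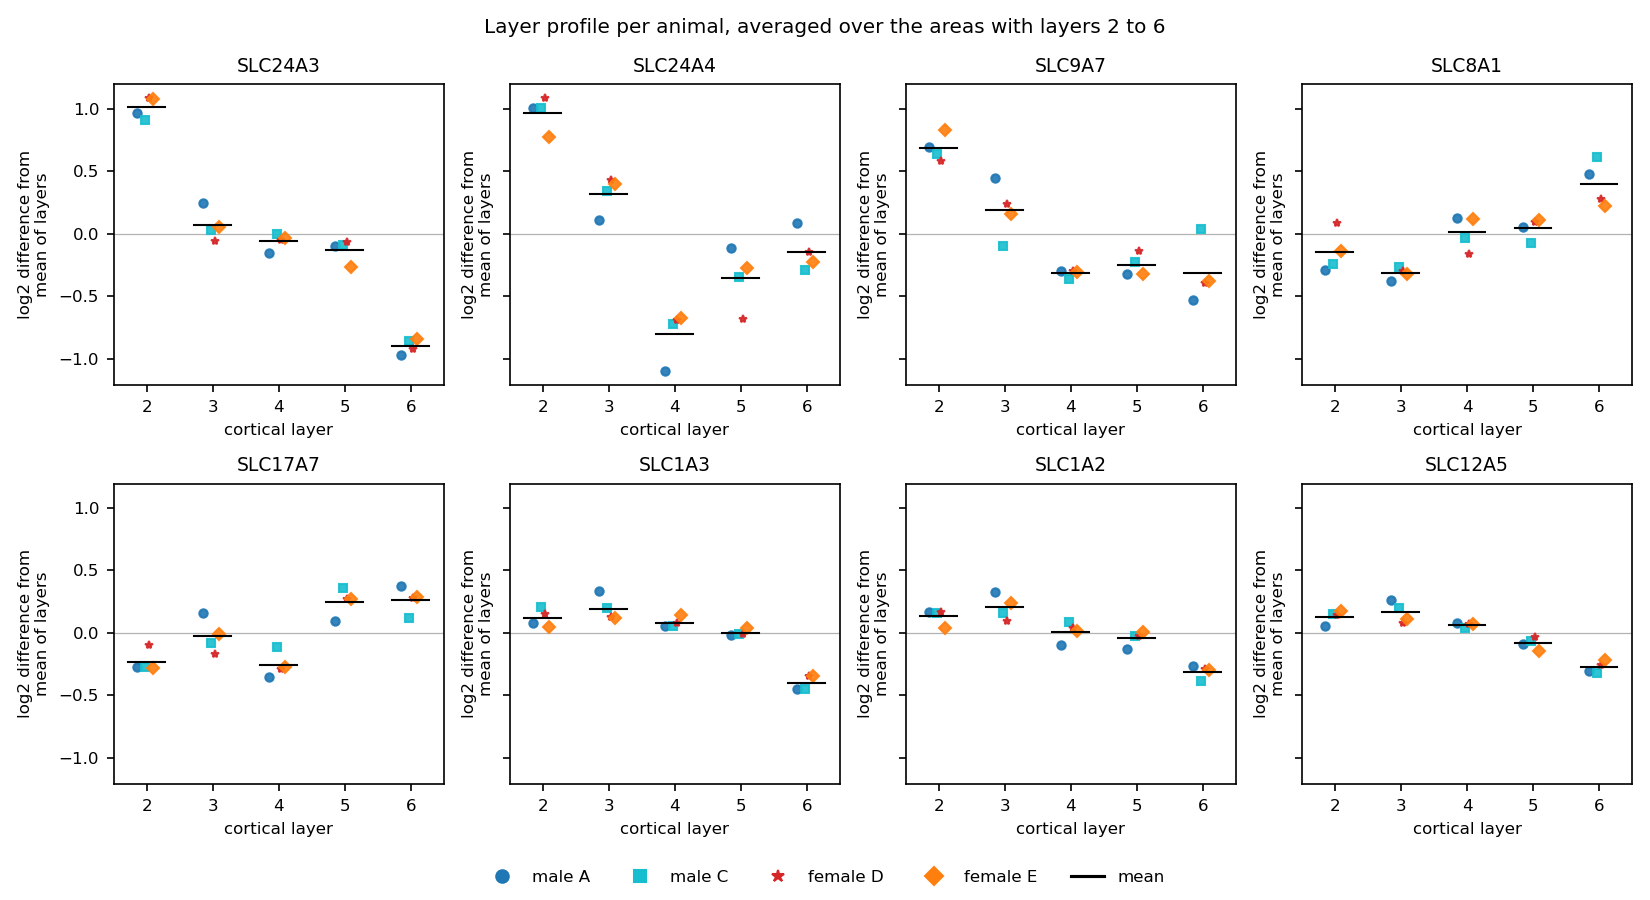
Layer profile of 8 members as log2 difference from the mean of layers 2 to 6, averaged over the areas that have these layers; points are 4 animals and bars their means. SLC24A3 runs from 0.916 to 1.085 in layer 2 to -0.97 to -0.84 in layer 6, while the points of SLC17A7, SLC1A2 and SLC12A5 stay between -0.38 and 0.37.

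Between cortical areas, V1 differed most: the calcium exchanger SLC24A4 was higher there and the proline transporter SLC6A7 was lower. The mean of layers 2, 3, 5 and 6 was compared over 10 areas in 6 animals. Areas differed for 4 of 37 members (10.8%, against 9.19% of all genes): SLC24A4 (range 1.52), SLC6A7 (1.18), SLC24A2 (1.06) and SLC8A1 (1.01). At adjusted p alone 27 members differed (73.0%, against 76.7% of all genes). The count was 2 without male A or male C (SLC24A4 and SLC6A7 in both cases), 6 without male B, and 2 without V1 (SLC24A4 and SLC8A1). It was 2 with the median of each gene's probe sets (SLC24A2 and SLC24A4). Control probes spread less between arrays in some areas (ACG, M1, S1, A1, V1 and TE, here the narrow control set) than in OFC, DLPFC, V2, MT, hippocampus and LGN (the wide set), and the sets are a stand-in for processing groups that the labels do not name. Within the narrow set 2 members were called among areas (SLC24A4 and SLC6A7), and within the wide set 0. Poly-A control probes were also brightest in V1 and V2 (9.87 and 9.71 log2 intensity, against 8.34 to 9.18 in the other areas). With these controls as a covariate 3 members were called among areas (SLC24A4, SLC6A7 and SLC8A1), and SLC24A2 was not.

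SLC6A7 averaged 6.55, 6.23, 6.69 and 6.70 in V1 of males A and C and females D and E, and 7.81, 7.75, 7.47 and 7.86 in ACG of males A and B and females D and E. Every V1 value was below every value of the other areas, whose lowest was 6.96 in MT of male A, and V1 was lower than the mean of the others (log2 change -0.82 ± 0.07, adjusted p = 2.31e-10). ACG was higher by 0.48 ± 0.07. SLC1A6 was also higher in ACG, by 0.55 ± 0.10, with 7.11, 6.89, 6.42 and 6.94 in males A and B and females D and E. The female D value lay within the range of other areas.

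SLC24A4 averaged 7.80, 8.15, 8.02 and 8.47 in V1 and 6.58, 6.51 and 6.50 in M1 of male A, male C and female D. The next highest area was A1 at 7.48 to 7.73, still below every V1 value. V1 was 2.11-fold above the mean of the other areas (1.077 ± 0.10, adjusted p = 2.41e-09), the only member called in this contrast (1 of 37, against 1.19% of all genes). SLC24A2, NCKX2, averaged 5.97, 6.00, 5.40 and 5.65 in V1 and, in OFC of males B and C and females D and E, 5.06, 4.72, 4.52 and 4.64. V1 and OFC did not overlap, while V1 of female D lay within the values of several other areas, and V1 exceeded the others by 0.58 ± 0.08. SLC8A1 averaged 9.80, 9.74, 9.46 and 10.10 in MT of male A, male C, female E and female F and 8.68, 8.82 and 8.46 in A1 of male C, female D and female E. OFC read 9.71 in male B and 8.57, 8.71 and 8.51 in male C, female D and female E, so male B stood apart from the other 3 animals there.

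Early visual areas (V1 and V2) against frontal areas (ACG, OFC and DLPFC) called 0 of 37 members (1.47% of all genes). At adjusted p alone in limma 5 members were higher (15.7% of all genes) and 9 lower (26.9% of all genes), 37.8% of the members against 42.7% of all genes. Higher in visual areas were SLC24A2 (0.64 ± 0.08), SLC24A4 (0.62 ± 0.10), SLC8A1 (0.37 ± 0.11), SLC4A2 (0.21) and SLC12A5 (0.19). Lower were SLC6A7 (-0.73 ± 0.06), SLC1A3 (-0.45 ± 0.06), SLC1A4 (-0.34 ± 0.04), SLC1A6 (-0.31 ± 0.09), SLC6A15 (-0.31 ± 0.08), SLC17A7 (-0.27 ± 0.06), SLC4A3 (-0.21), SLC1A5 (-0.21) and SLC9A5 (-0.18). The 4 SLC1A members in this list carry glutamate or neutral amino acids. SLC1A3 averaged 11.19, 11.53, 11.56 and 11.54 in V1 and 11.14, 11.56, 11.43 and 11.58 in V2 of males A and C and females D and E, and from 11.62 to 12.23 over the frontal areas, without overlap.

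The size of several visual against frontal differences moved with the control sets. Within the narrow set, which compares V1 with ACG, SLC24A4 was higher by 1.12 ± 0.17 and SLC6A7 had a log2 change of -1.14 ± 0.10, and these 2 were called. Within the wide set, which compares V2 with OFC and DLPFC, SLC6A7 had a log2 change of -0.33 ± 0.08 and SLC24A2 higher by 0.61 ± 0.10, and SLC24A4 did not pass the adjusted p. With V2 alone against the 3 frontal areas SLC6A7 differed by -0.47 ± 0.08 and SLC24A2 by 0.44 ± 0.10. With the poly-A controls as a covariate SLC6A7 differed by -0.96 ± 0.11 and SLC24A4 by 0.72 ± 0.18.

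**Figure D5:**
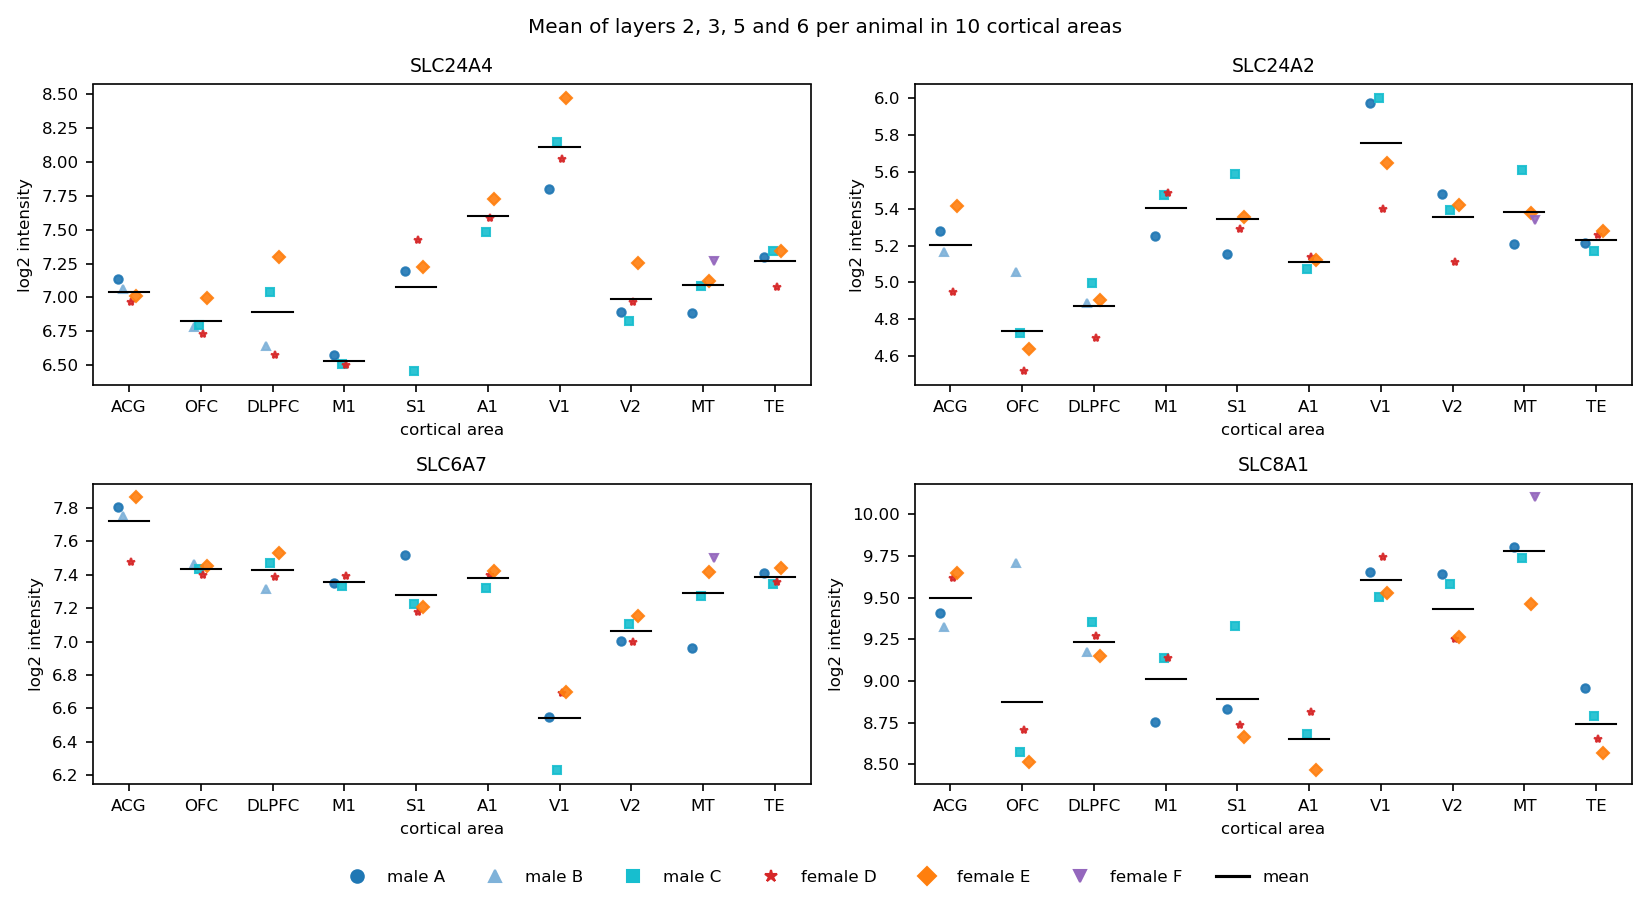
Log2 intensity per animal, as the mean of layers 2, 3, 5 and 6, in the 10 cortical areas for the 4 members called among areas; points are animals and bars means. In V1 all 4 animals lie above every other area for SLC24A4 and below every other area for SLC6A7.

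The difference between deep and upper layers itself varied among areas for 2 of 37 members (5.41%, against 2.71% of all genes). SLC9A7 had a deep minus upper difference of -1.23, -1.11, -0.97 and -2.10 in ACG of males A and B and females D and E, and of -0.23, -0.41, 0.35 and -0.23 in V1 of males A and C and females D and E. ACG and V1 did not overlap, and the range of the fitted area means was 1.30 (adjusted p = 0.00268). SLC9A7 lay under the filter over all experimental arrays and passed it within this comparison. Its mean in layer 5 of ACG was 3.92, a level that cannot be told from background. SLC24A3 had its smallest layer difference in ACG (-0.55, -0.16, -0.33 and -0.58 in the same animals) and its largest in MT (-1.40, -1.81, -1.40 and -0.84 in male A, male C, female E and female F), again without overlap. Its range was 1.10 (adjusted p = 0.00758). Its call was lost without male A, male C, female D or female E, without the animal block, and within either control set. SLC9A7 kept its call in these settings except within the wide set, where 0 members were called.

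Within V1, with its divided layer 4, 7 of 36 members differed among the 8 layers (19.4%, against 14.7% of all genes). The vesicular transporter SLC17A7 was higher in layer 6 and low in the middle of layer 4: it read 7.88, 8.45, 8.47 and 8.69 in layer 6 and 6.36, 7.52, 6.31 and 6.56 in layer 4ca, in males A and C and females D and E. No layer 4ca value reached the lowest layer 6 value, and layer 6 exceeded the mean of the other layers by 1.07 ± 0.19 (adjusted p = 3.06e-04; 0.98 without female E and 0.96 after quantile normalization). SLC24A3 read 10.44, 9.96, 9.87 and 10.47 in layer 2 and 8.17, 8.57, 7.94 and 8.23 in layer 6, without overlap. Layer 2 was higher by 1.10 ± 0.13 (0.92 without male A) and layer 6 lower (log2 change -1.13 ± 0.13). SLC24A4 (range 1.07) and the chloride-bicarbonate exchanger SLC4A3 (1.02) also ran from a high layer 2 to a low layer 6. SLC8A1 (1.17) and SLC6A15 (1.15) were highest in layer 6. SLC1A6 (1.14) was highest in layer 4cb, where males A and C read 7.38 and 7.76 and females D and E 6.39 and 6.40. The count of 7 was 3 without male A (SLC17A7, SLC24A3 and SLC4A10) and 4 without female E (SLC17A7, SLC24A3, SLC24A4 and SLC1A6). The calls of SLC8A1 and SLC6A15 were also lost without female D, and that of SLC1A6 without male C.

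The 3 LGN divisions called 0 of 37 members (0.399% of all genes), and 1 member, the endosomal sodium-proton exchanger SLC9A9, passed the adjusted p of limma (3.07% of all genes). It read 5.82, 5.93, 5.27 and 5.50 in the koniocellular division, 4.46, 4.95, 4.88 and 4.51 in the magnocellular and 5.04, 5.67, 4.90 and 4.73 in the parvocellular division of males A and C and females D and E. Koniocellular values lay above every magnocellular value and overlapped the parvocellular ones. The other probe set of SLC9A9 was unrelated to its main one over the 57 group means (r = 0.09). In the label check the koniocellular array of male A matched the parvocellular division best (r = 0.33, own division 0.27). The parvocellular array of female D matched the koniocellular division best (r = 0.15, own division 0.12). The koniocellular division exceeded the other 2 by 0.74 ± 0.13 (adjusted p = 0.00751) and the magnocellular one was lower, with a log2 change of -0.66 ± 0.13 (adjusted p = 0.0192). Without female D the range passed 1 and SLC9A9 was called. The members next in order of the moderated t did not pass: SLC12A8 and SLC12A5 in the magnocellular division (0.41 ± 0.12 and 0.35 ± 0.12), SLC6A15 in the koniocellular (-0.31 ± 0.10) and SLC4A2 in the parvocellular division (-0.24 ± 0.09). SLC12A8 read 6.45, 7.29, 6.71 and 6.53 in the magnocellular, 6.10, 6.51, 5.90 and 6.57 in the koniocellular and 6.21, 6.94, 6.04 and 6.37 in the parvocellular division, with overlap between all 3.

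Males A and C against females D and E called no member (0 of 35, with 0% of the 10306 genes at adjusted p in limma). At an unadjusted p under 0.05 there were 726 genes and 2 members. The highest moderated t in males were those of SLC1A6 (0.38 ± 0.09), SLC1A7 (0.16 ± 0.07) and SLC1A4 (0.20 ± 0.11), and the lowest those of SLC24A4 (-0.18 ± 0.06), SLC6A8 (-0.16 ± 0.06) and SLC1A2 (-0.14 ± 0.07). With 2 animals a sex, differences of this size were not detectable after adjustment.

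Of the transmitter and chloride transporters listed for description by level, 17 were measured. Those not analysed here include SLC17A6, SLC32A1, SLC6A13, SLC6A4, SLC1A1 and SLC12A2. The plasma membrane amine transporters SLC6A3 (dopamine) and SLC6A2 (noradrenaline) kept to 5.81 to 6.48 and 3.31 to 3.95 over all neocortical group means, and to 5.93 to 6.40 and 3.40 to 3.65 over the LGN and hippocampal ones. The vesicular transporters SLC18A1 and SLC18A3 (acetylcholine) kept to group means of 4.34 to 5.30 and 4.90 to 5.59. The GABA carrier SLC6A11 and the glycine carriers SLC6A9 and SLC6A5 lay at 4.36 to 5.22, 4.16 to 5.18 and 3.55 to 4.43. SLC1A4, a neutral amino acid carrier, varied from 8.81 in layer 4ca of V1 to 9.79 in layer 3 of ACG, and SLC1A7 (EAAT5) from 5.01 to 5.82. The animal took up 27.9% of the variation of SLC1A4.

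Below the filter lay 19 members with mean levels of 3.15 to 4.76, and 14 of them had group means that spanned less than 1.2 log2 units. At such levels a small range cannot be told from background, since the deposited table holds no detection calls. The 5 wider ones were SLC12A8 (3.09), SLC9A7 (2.36), SLC17A8 (2.22), SLC18A2 (1.99) and SLC9A9 (1.79). Some of the members below it, among them SLC9A7, SLC9A9 and SLC12A8, passed the filter within single comparisons and were tested there. Without the filter 29 of 55 members were called among the 57 groups (52.7%, against 58.3% of all genes). SLC17A8, the vesicular glutamate transporter VGLUT3, was highest in A1. It read 5.56, 5.14, 5.33 and 5.27 in layer 6 of A1 in males A and C and females D and E, and 4.98, 3.76 and 5.64 in layer 5 of male C, female D and female E. Its deep minus upper difference was larger in A1 than in the other areas by 1.41 ± 0.16 (adjusted p = 7.50e-06 without the filter). In layer 3 of A1, 3 arrays read 3.15, 3.16 and 3.30, and the array labelled A1 layer 3 of male A, which matched layer 5 over other genes, read 6.28.

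Genes that make, recycle or power what these transporters carry were followed from a list of 48, of which 33 were measured and 25 were above the filter. Between structures 6 of 25 were called (against 17.9% of all genes). STK39, the kinase that regulates cation-chloride cotransporters, was higher in LGN than in neocortex by 1.23 ± 0.07. The calcium pump ATP2B1, the sodium pump modulators FXYD6 and FXYD7 and the carbonic anhydrase-related CA10 were lower there (-1.22 ± 0.09, -3.22 ± 0.17, -1.16 ± 0.07 and -3.02 ± 0.14). GAD1, which makes GABA, was lower in hippocampus than in neocortex (log2 change -1.15 ± 0.13). In DG 4 of 24 were called (10.3% of all genes): CA10 and GAD1 were higher than in the other fields (2.25 ± 0.13 and 1.56 ± 0.17) and the GABA-degrading ABAT and the monoamine oxidase MAOA lower (-1.20 ± 0.11 and -1.12 ± 0.09). Deep against upper layers called 0 of 25 (2.12% of all genes), with 5 higher and 8 lower at adjusted p alone (16.8% and 14.9% of all genes), among them CA10 (-0.86 ± 0.05) and WNK1, a kinase upstream of STK39 (0.61 ± 0.05).

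The genes whose 57 group means were most like those of SLC17A7 were RNF128 (r = 0.93), BASP1 (0.93), ZDHHC23 (0.90), ARHGEF4 (0.90) and MMD (0.89). The most like member was SLC4A10 (r = 0.74) and the most opposite SLC6A12 (r = -0.58). These correlations describe group means that share animals and arrays.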

How the data were processed

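RNA from each region was extracted with the RNeasy Micro kit and amplified in 2 cycles from 5 ng, per the labels' protocols. The deposited values are log10 intensities; the authors ran RMA in Matlab within each amplification batch and then scaled each probe set on whole-brain control samples, per the file headers. How far batch differences remain cannot be seen from the table. The test design assumed log2 values, so values were multiplied by log2 of 10 (3.32). The table has 52865 probe sets, of which 24969 have 1 gene symbol, 361 several and 27535 none, in GEO's platform annotation. All 55 members matched the RefSeq gene list by Entrez identifier.

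Tests used limma 3.58.1 in R 4.3.3 (lmFit, eBayes) on all genes above the filter, with the animal as a block except between sexes, and Benjamini-Hochberg adjustment over all genes tested. The ± values are SEs of fitted log2 changes. Arrays of 1 animal in different regions shared residuals (median r 0.134 over 5367 pairs, against -0.0379 over 19500 pairs of different animals), so the animal pairs the samples. Precision is limited by the number of animals, 4 to 6 in a comparison. The 27 control arrays entered no comparison.

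Members and lists were chosen with earlier results of these data known. Called members are named in each comparison, and where there was none, the 3 members at either end of the moderated t. Alternatives were probe set choice, filter, quantile normalization, a variance trend, the block, left-out animals and the control sets. The scripts were tested on simulated data.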

Additional observations from a re-analysis of the deposited data

Results flagged for a closer look

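In 82 sets of 4 values, the highest or lowest value stood apart from the others by Dixon's criterion in 7, where chance gives about 1 in 20. In hippocampus SLC17A7 averaged 9.57 in female E and 8.97 to 9.05 in the other 3 animals, and SLC24A4 averaged 5.59 in male A and 5.87 to 5.89 in the others. In neocortex SLC24A3 averaged 9.34 in female E and 9.14 to 9.16 in the others. SLC8A1 in DG read 6.36 in female E and 7.26 to 7.41 in the others, and SLC24A3 in CA2 read 12.16 in male A and 12.55 to 12.59 in the others. SLC8A1 in OFC averaged 9.71 in male B and 8.51 to 8.71 in the others. SLC17A8 read 6.28 on the array labelled A1 layer 3 of male A and 3.15 to 3.30 on the other arrays of that group, and this array matched layer 5 in the label check.

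The deep minus upper difference varied among the 10 areas by a test of the difference itself for SLC9A7 (range 1.30) and SLC24A3 (range 1.10), and, without the filter on low values, for SLC17A8 (range 1.87).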

How the results depend on the processing

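The calls of 32 named member contrasts gave 343 values under the alternatives: 332 kept their direction and their side of the threshold, 11 fell below it in the same direction, and 0 reversed. These values do not include the area contrast, SLC24A4 in V1, refitted within the narrow or the wide control set. Among the 10 areas the 4 members called became 2 with the median of each gene's probe sets, 2 within the narrow control set, 0 within the wide one, 2 without V1, and 2 to 6 with an animal left out. For the deep minus upper difference among areas the 2 members became 1 without the replicate block, 1 within the narrow and 0 within the wide control set, and 1 to 2 with an animal left out; the block changed no other count of called members by over 1.5 times. Visual against frontal areas went from 0 to 2 within the narrow set. The 20 members called among 57 groups were 7 at a range of at least 2 (share of all genes not given), and 20 to 23 with an animal left out. Leaving out animals gave 3 to 8 members in V1 (7 with all) and 0 to 1 among LGN divisions (0 with all). Smaller sets have fewer arrays; the causes of these changes were not tested. Members close to the array's lower levels are limited by the lack of detection calls, and areas in different control sets cannot be told apart from those sets.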
